A study of Mus musculus with 52 samples.

Results

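The regions described here are 3150 early Oct4 sites in chromatin that carried no mapped mark in fibroblasts and no Oct4 peak in the induced pluripotent stem (iPS) cells made from them. They were chosen by measured values, namely the presence or absence of peaks in 12 ChIP-seq peak lists. Each is a day 4 Oct4 peak of Mbd3+/+ cells that overlapped, by at least 1 bp, a day 4 Oct4 peak of Mbd3flox/- cells. Each overlapped no H3K27ac, H3K4me3, H3K27me3 or Oct4 peak of fibroblasts of either genotype and no Oct4 peak of either iPS list. The 43 lists analysed held 928298 peaks, and 31 of them took no part in the choice. Those 31 lists are the measurements reported below.

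Mouse embryonic fibroblasts (MEF) carried a doxycycline-inducible cassette for Oct4, Sox2, Klf4 and Myc, and were sampled before doxycycline, on days 4 and 8 of it, and as iPS cells. The groups were Mbd3flox/- cells, with 1 floxed and 1 null allele of Mbd3, Mbd3-/- embryonic stem (ES) cells, and Mbd3+/+ cells. The clones chosen for sequencing also differed in their randomly inserted Oct4-GFP reporter, which was the complete form in flox/- and -/- cells and a form without the proximal enhancer in +/+ cells, so genotype, clone and reporter cannot be told apart. Fibroblasts were grown in serum medium and all later stages in ES cell medium, so medium and stage changed together. With 1 library for each antibody at a stage of a genotype, nothing could be tested across replicates and no p-value is given. Shares are given with 95% Wilson intervals, which cover the counting of sites and nothing else.

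Oct4 is a POU-domain transcription factor that binds DNA together with Sox2 and is required for pluripotency. It can bind sites in closed chromatin, and in reprogramming cells it is known to occupy many places early that pluripotent cells do not use. H3K27ac marks active enhancers and promoters, H3K4me3 marks promoters, and H3K27me3 is the Polycomb mark of silent genes. Mi2B is the ATP-dependent remodeller of the NuRD complex, which joins remodelling with histone deacetylation, and Mbd3 is a subunit of the same complex.

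The day 4 Oct4 lists held 33755 peaks in flox/- and 16785 peaks in +/+ cells, and 8740 of the +/+ peaks overlapped a flox/- peak. Of these shared peaks, 4504 overlapped a fibroblast peak, mostly H3K27ac (3873 peaks), and 4236 overlapped none. Of the unmarked peaks, 1086 had Oct4 in an iPS list, and the remaining 3150 (36.0% of the shared peaks) are the early sites. The 1086 peaks, called kept sites here, met every other condition of the rule and serve for comparison. Most of them were kept in the longer +/+ iPS list, with 434 in both iPS lists, 13 in the flox/- list alone and 639 in the +/+ list alone. The flox/- iPS Oct4 list had 3331 peaks and the +/+ list 11881, so an early site is one where Oct4 was not detected in iPS cells rather than one shown to be empty.

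The sites were narrow, with a median width of 765.5 bp (313 to 5340). Their Oct4 scores, given by the authors' peak caller, ran from 50.01 to 3102.74 in the +/+ list. The median site stood at the 69.5th percentile of the flox/- list and the 58.7th percentile of the +/+ list, and the median kept site at the 76.3rd and 71.3rd. The median site was 9705 bp from the nearest fibroblast H3K27ac peak of either genotype, and 17.7% lay within 2 kb of one while 49.2% lay more than 10 kb away. The nearest site to a fibroblast H3K27ac peak was 2 bp from it, and the least overlap that kept a peak out was 5 bp. For iPS Oct4 the nearest site was 41 bp away and the least overlap was 64 bp, and 15 sites lay within 50 bp of fibroblast H3K27ac while 15 peaks were left out by an overlap of 50 bp or less.

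The sites were spread over 20 chromosomes, with a median gap of 381 kb between neighbours. On chromosome X, 79 of 154 shared Oct4 peaks were early sites, or 51.3% (43.5 to 59.1). On the other chromosomes the share lay between 28.7% on chromosome 7 and 40.6% on chromosome 9. The chromosome X share was the highest of the 20.

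With the full lists, H3K27ac was found at most of the sites on day 4 and at fewer later. The lower share on day 8 was more marked in flox/- than in +/+ cells. In flox/- cells an H3K27ac peak overlapped 2005 of 3150 sites on day 4, or 63.7% (62.0 to 65.3), against 75.2% of all shared day 4 Oct4 peaks. The flox/- share was 19.2% (17.8 to 20.6) on day 8, against 41.3% of all shared peaks, and 7.33% (6.47 to 8.30) in iPS cells, against 30.9%. In +/+ cells the shares were 51.9% (50.2 to 53.7) on day 4, 39.1% (37.4 to 40.8) on day 8 and 16.5% (15.3 to 17.8) in iPS cells. The corresponding values over all shared peaks in +/+ cells were 69.1%, 65.2% and 44.6%. As no site had a fibroblast H3K27ac peak, every later peak counts as a gain by the way the sites were chosen. All shared peaks include 4504 with a fibroblast peak, mostly H3K27ac (3873 peaks), which the rule left out. The contrasts with all shared peaks on days 4 and 8, for each mark and for retention between the days, are therefore not independent of the choice. The choice also left out iPS Oct4, and the kept sites had iPS H3K27ac at 47.6% in flox/- and 72.6% in +/+ cells.

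The order of the genotypes changed between the days, at these sites as over all shared peaks. On day 4, 703 sites had H3K27ac in flox/- cells alone, 334 in +/+ cells alone and 1302 in both. On day 8, 151 sites had it in flox/- cells alone, 779 in +/+ cells alone and 453 in both. As shares, 22.3% of the sites were in flox/- cells alone and 10.6% in +/+ cells alone on day 4, against 15.0% and 8.87% of all shared peaks. On day 8, 4.79% were in flox/- cells alone and 24.7% in +/+ cells alone, against 3.95% and 27.9% of all shared peaks. The lists differed in length in the same directions, with 39499 flox/- and 28173 +/+ H3K27ac peaks on day 4 and 21237 and 39463 on day 8. With the 21237 highest-scoring peaks of each list, the flox/- minus +/+ difference was 2.95 percentage points on day 4, against 11.7, and -2.79 points on day 8, against -19.9. The difference between the days stayed in both genotypes under that setting, with 43.0% on day 4 and 19.2% on day 8 in flox/- cells and 40.0% and 22.0% in +/+ cells. By covered sequence the lists were closer, at 71.8 Mb in flox/- and 91.8 Mb in +/+ cells on day 4 and 91.0 Mb and 97.1 Mb on day 8.

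**Figure D1:**
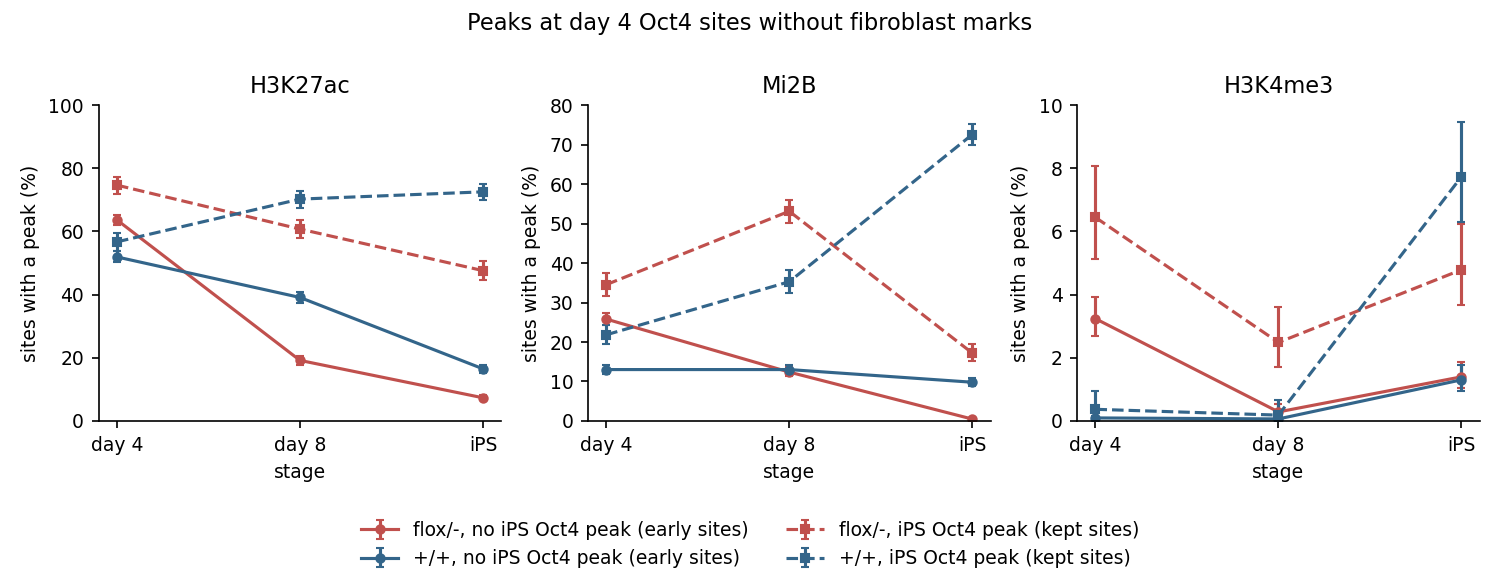
Share of sites (vertical axis, %) with an H3K27ac, Mi2B or H3K4me3 peak on day 4, day 8 and in iPS cells (horizontal axis), for the 3150 early sites (solid) and the 1086 kept sites (dashed) in flox/- (red) and +/+ (blue) cells, with 95% Wilson intervals and a separate vertical scale in each panel. H3K27ac at the early sites was 63.7%, 19.2% and 7.33% in flox/- cells and 51.9%, 39.1% and 16.5% in +/+ cells.

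Followed site by site, day 4 acetylation in flox/- cells was mostly absent by day 8. There, 1465 sites had H3K27ac on day 4 alone, 540 on both days, 64 on day 8 alone and 1081 on neither. Of the flox/- sites acetylated on day 4, 26.9% (25.0 to 28.9) were acetylated on day 8. In +/+ cells 559 sites had H3K27ac on day 4 alone, 1077 on both days, 155 on day 8 alone and 1359 on neither, and 65.8% (63.5 to 68.1) of the day 4 sites were acetylated on day 8. Over all shared peaks the share of day 4 acetylated peaks with H3K27ac on day 8 was 51.1% (49.8 to 52.3) in flox/- and 85.1% (84.2 to 86.0) in +/+ cells. Among kept sites it was 70.5% and 91.4%, and among the sites acetylated in both fibroblast lists and without iPS Oct4, described below, 57.5% and 94.4%. The lower share in flox/- than in +/+ cells was thus found in each of these sets, which were all read from the same H3K27ac lists. Between days 4 and 8 those lists went from 39499 to 21237 peaks in flox/- and from 28173 to 39463 in +/+ cells. Retention was not computed with equal numbers of peaks, where the day 4 and day 8 shares lay closer between the genotypes, as given above. A site first acetylated on day 8 was uncommon in either genotype, at 2.03% of flox/- and 4.92% of +/+ sites.

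**Figure D2:**
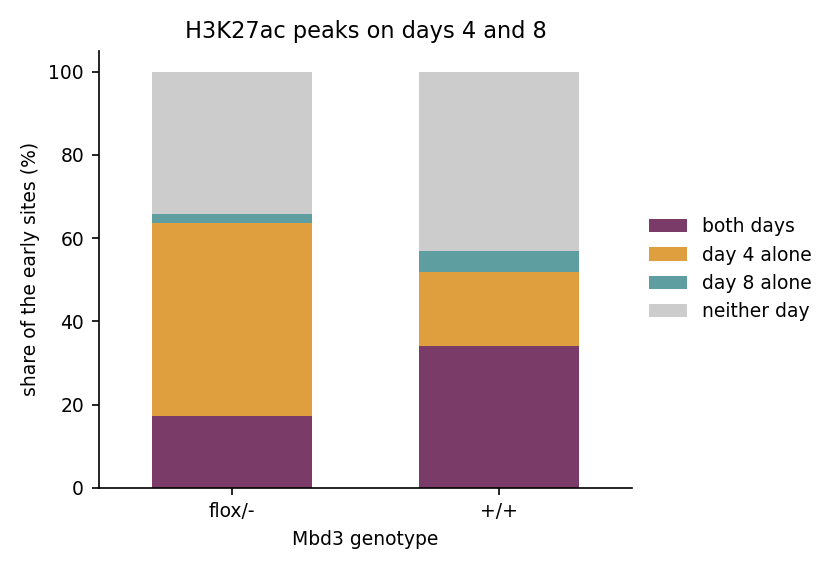
Share of the 3150 early sites (vertical axis, %) with an H3K27ac peak on both days, on day 4 alone, on day 8 alone or on neither, in flox/- and +/+ cells (horizontal axis). The day 4 alone part was 46.5% in flox/- and 17.7% in +/+ cells.

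Sites with H3K27ac on day 8, with or without it on day 4, more often had it in iPS cells as well. In flox/- cells 30.9% (27.2 to 34.9) of sites acetylated on both days had an iPS H3K27ac peak and 28.1% (18.6 to 40.1) of those acetylated on day 8 alone, against 2.59% of those acetylated on day 4 alone and 0.740% of those acetylated on neither day. In +/+ cells the shares were 31.2% (28.5 to 34.0) for both days and 40.6% (33.2 to 48.5) for day 8 alone, against 6.80% for day 4 alone and 6.11% for neither. This order was not particular to the early sites. At kept sites, both days against day 4 alone gave 67.13% and 17.99% in flox/- and 84.37% and 47.17% in +/+ cells. At the sites acetylated in both fibroblast lists and without iPS Oct4, the shares were 74.71% and 14.72% in flox/- cells. In +/+ cells they were 63.03% and 10.48%. In Mbd3-/- ES cells, 484 sites or 15.4% (14.1 to 16.7) carried H3K27ac, against 42.8% of all shared peaks. In all, 372 sites (11.8%) had H3K27ac in all 4 lists of days 4 and 8 and 736 sites (23.4%) in none of them. No peak in any of the 31 other lists was found at 539 sites (17.1%). These combinations were counted for the early sites alone, so the shares are not known to be particular to them.

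Most of the acetylation lay over the Oct4 peak itself. An H3K27ac peak covered the midpoint of 56.0% of sites in flox/- and 51.4% in +/+ cells on day 4, and a window of 10000 bp either side of it held one at 72.8% in flox/- and 62.3% in +/+ cells. In fibroblasts the same windows held H3K27ac at 42.4% of sites in flox/- and 44.6% in +/+ cells, where no midpoint was covered by the rule. On day 4, 7.93% of acetylated sites in flox/- and 17.1% in +/+ cells lay in an H3K27ac peak that touched a fibroblast H3K27ac peak of the same genotype, and on day 8 21.7% and 13.9%. The rule, which left out overlap with fibroblast H3K27ac, largely sets these shares low. The H3K27ac peaks over the sites were somewhat wide, with a median of 1960 bp in flox/- and 3039.5 bp in +/+ cells on day 4 and list medians of 1420 bp and 2590 bp.

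At the early sites, distance from fibroblast acetylation went with the share acetylated. The distances come from fibroblast H3K27ac lists that the rule used. Classes of distance were made for the early sites alone, so the relation is not known to be particular to them. Of the 315 sites up to 1000 bp from a fibroblast H3K27ac peak, 68.6% in flox/- and 63.5% in +/+ cells had H3K27ac on day 4. Of the 409 sites more than 50000 bp away, 49.1% (44.3 to 53.9) in flox/- and 29.1% (24.9 to 33.7) in +/+ cells did. On day 8 the near sites had 24.8% and 56.2% and the far sites 7.82% and 17.6% in flox/- and +/+ cells. Acetylation was thus found at the sites farthest from fibroblast H3K27ac too.

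**Figure D3:**
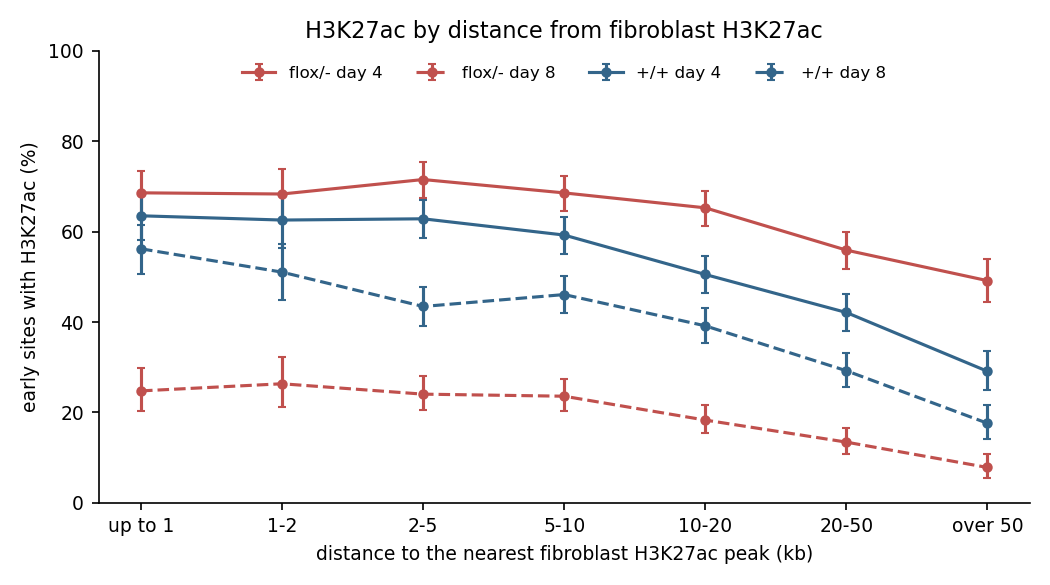
Share of the early sites with H3K27ac (vertical axis, %) by distance in kb from the nearest fibroblast H3K27ac peak of either genotype (horizontal axis, 7 classes of 243 to 590 sites), in flox/- (red) and +/+ (blue) cells on day 4 (solid) and day 8 (dashed), with 95% Wilson intervals. On day 4 the shares at the far end were 49.1% in flox/- and 29.1% in +/+ cells.

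Acetylation on day 4 went with the Oct4 score of the same genotype. The sites were divided into 4 classes of nearly equal number by score in each list. The scores come from the day 4 Oct4 lists that the rule used. Classes were made for the early sites alone, so the relation is not known to be particular to them. By flox/- Oct4 score, 87.8% of sites of the highest class and 38.7% of the lowest had flox/- H3K27ac on day 4, while +/+ H3K27ac was at 56.3% and 46.8%. By +/+ Oct4 score, 87.6% of sites of the highest class and 24.1% of the lowest had +/+ H3K27ac, while flox/- H3K27ac was at 77.2% and 54.7%. Mi2B on day 4 went the same way, at 43.9% of the highest and 11.8% of the lowest class in flox/- cells by flox/- score, and at 35.3% and 3.05% in +/+ cells by +/+ score.

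**Figure D4:**
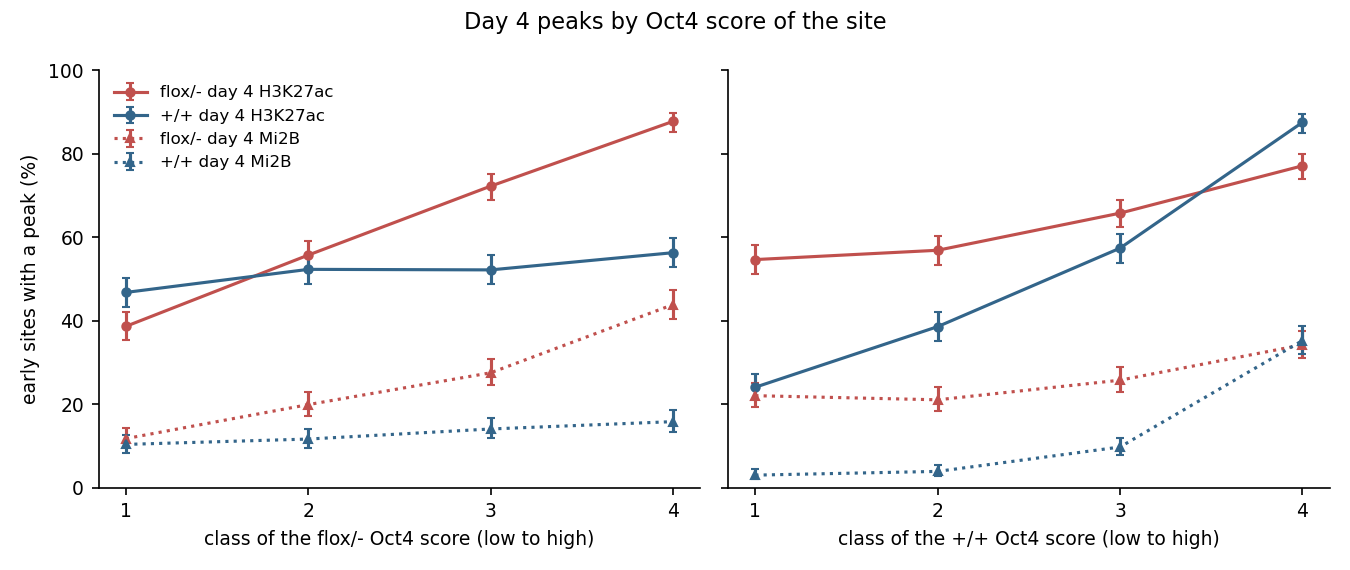
Share of the early sites with H3K27ac (circles, solid) or Mi2B (triangles, dotted) on day 4 in flox/- (red) and +/+ (blue) cells (vertical axis, %), by class of the flox/- Oct4 score (left) and of the +/+ Oct4 score (right), with 95% Wilson intervals. In each panel the steeper H3K27ac line is that of the genotype whose Oct4 score is on the horizontal axis, reaching 87.8% in flox/- cells on the left and 87.6% in +/+ cells on the right.

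Mi2B was found at a minority of the sites, mostly where H3K27ac was found. On day 4 a Mi2B peak overlapped 813 sites in flox/- cells, or 25.8% (24.3 to 27.4), against 37.6% of all shared peaks, and 410 sites in +/+ cells, or 13.0% (11.9 to 14.2), against 27.8%. On day 8 the counts were 390 sites in flox/- cells, or 12.4% (11.3 to 13.6), against 30.4%, and 410 in +/+ cells, or 13.0% (11.9 to 14.2), against 35.5%. On day 4, 199 sites had Mi2B in both genotypes, 614 in flox/- cells alone and 211 in +/+ cells alone. The parts in 1 genotype alone were 19.5% of sites for flox/- and 6.70% for +/+ cells, against 21.0% and 11.3% of all shared peaks. All shared peaks include those with fibroblast H3K27ac, which the rule left out, so these contrasts are not independent of the choice. The stage labels of the +/+ Mi2B libraries name later days than their titles, which were followed, so the day of these libraries is uncertain. Such a conflict was found for 6 +/+ samples in all, so the day of some other +/+ lists is uncertain too. The +/+ Mi2B peaks were also narrow, with a median of 238 bp on day 4 against 683 bp in flox/- cells, and the genotype difference moved with the settings. On day 4 the flox/- minus +/+ difference was 12.8 percentage points, against 2.33 with scores of at least 100 and 22.3 where a peak had to cover 50% of the site. On day 8 it was -0.635 points, against 3.81 and 5.50 under those settings and 5.37 with equal numbers of peaks, so its direction on day 8 is not settled. The shares themselves moved too. With scores of at least 100 they were 8.79% on day 4 and 9.11% on day 8 in flox/- cells and 6.46% and 5.30% in +/+ cells, so the lower flox/- share on day 8 was not seen under that setting. With 50% of the site covered they were 24.0% and 12.3% in flox/- and 1.67% and 6.76% in +/+ cells. A +/+ day 4 Mi2B peak of the median 238 bp cannot cover 50% of a site of the median 765.5 bp. The differences under that setting therefore depend on peak width.

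Acetylated sites had Mi2B more often than the others, at early and kept sites alike. On day 4 in flox/- cells, Mi2B was at 34.0% (31.9 to 36.1) of sites with H3K27ac and 11.5% (9.81 to 13.5) of sites without it, and in +/+ cells at 21.9% (20.0 to 24.0) and 3.37% (2.57 to 4.40). On day 8 the shares were 48.3% and 3.85% in flox/- and 27.5% and 3.70% in +/+ cells. At the kept sites they were 41.4% and 14.2% on day 4 and 73.9% and 20.9% on day 8 in flox/- cells. In +/+ cells the kept sites had 35.6% and 3.83% on day 4 and 45.0% and 12.4% on day 8. Read the other way, 83.8% of the sites with Mi2B in flox/- cells on day 4 and 87.6% of those in +/+ cells had H3K27ac. By day, 204 sites had Mi2B on both days, 609 on day 4 alone and 186 on day 8 alone in flox/- cells, and 150, 260 and 260 in +/+ cells. Of the sites with Mi2B on day 8, 52.3% (47.4 to 57.2) in flox/- and 36.6% (32.1 to 41.4) in +/+ cells had it on day 4, against 59.7% and 52.7% over all shared peaks. Of the sites with Mi2B on day 4, 25.1% and 36.6% had it on day 8, against 48.4% and 67.2%.

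In pluripotent cells the sites, chosen to lack iPS Oct4, had little Mi2B. A peak overlapped 15 sites in flox/- iPS cells (0.476%, against 6.44% of all shared peaks), 191 in -/- ES cells (6.06%, against 28.3%) and 309 in +/+ iPS cells (9.81%, against 34.3%). The flox/- iPS Mi2B list had 3462 peaks and the +/+ list 26992, so these shares are not comparable between genotypes. Among the kept sites, which had iPS Oct4, Mi2B was at 17.2% in flox/- iPS, 47.6% in -/- ES and 72.6% in +/+ iPS cells. All shared peaks include such sites, so the contrasts in pluripotent cells, for each mark, are not independent of the choice. Mbd3 was mapped in +/+ cells alone. It was at 2 sites in fibroblasts (0.0635%, against 0.286%), 22 on day 4 (0.698%, against 2.13%) and 127 in iPS cells (4.03%, 3.40 to 4.78, against 18%). Of the kept sites, 48.3% had Mbd3 in iPS cells.

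H3K4me3 was nearly absent. On day 4 it was at 102 sites in flox/- cells, or 3.24% (2.67 to 3.92), against 20.9% of all shared peaks, and at 3 sites in +/+ cells (0.0952%, against 12.6%). On day 8 it was at 9 sites in flox/- cells (0.286%, against 12.8%) and at 2 in +/+ cells (0.0635%, against 10.1%). The 102 peaks were weak, with a median score of 80.1 against 491 for the flox/- list, and 91 of them lay on flox/- day 4 H3K27ac. With the 13752 highest-scoring peaks of each list the flox/- day 4 share was 0.444%, and the flox/- list covered 35.8 Mb against 18.7 Mb in +/+ cells. Only 4 of the 102 sites had H3K4me3 in flox/- cells on day 8, and 18 had it in -/- ES cells. In pluripotent cells H3K4me3 was at 44 sites in flox/- iPS cells (against 17.9%), 71 in -/- ES cells (2.25%, against 19%) and 41 in +/+ iPS cells (1.30%, against 17.7%). The rule left out fibroblast H3K4me3, so promoters marked in fibroblasts cannot be among the sites.

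H3K27me3 was found at almost none of the sites. On day 4 it was at 1 site in flox/- cells (0.0317%, against 0.0458%) and at 0 of 3150 in +/+ cells (against 0.0114%), which allows a share of up to 0.0952%. On day 8 it was at 1 site in +/+ cells (against 0.0572%). The day 4 lists held 567 flox/- and 570 +/+ peaks, and the +/+ day 8 list 939, so these lists could show few sites. In pluripotent cells, with longer lists, H3K27me3 was at 8 sites in flox/- iPS cells (0.254%, against 1.29%), 15 in -/- ES cells (0.476%, against 1.4%) and 14 in +/+ iPS cells (0.444%, against 1.69%).

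Oct4 itself was still present at a part of the sites on day 8. In flox/- cells, a day 8 Oct4 peak overlapped 993 sites, or 31.5% (29.9 to 33.2), against 48.9% of all shared peaks and 91.1% (89.2 to 92.6) of the kept sites. Oct4 on day 8 in +/+ cells was not analysed here. By flox/- day 4 score the share was 50.8% in the highest class and 18.1% in the lowest. Sites with and without day 8 Oct4 lay far apart in the day 8 marks of the same cells. With it, 46.9% (43.8 to 50.0) had flox/- H3K27ac on day 8 and 35.8% (32.8 to 38.8) had Mi2B. Without it, 6.40% (5.44 to 7.51) had H3K27ac and 1.62% (1.17 to 2.25) had Mi2B. This division was not particular to the early sites. Of the 989 kept sites with day 8 Oct4, 65.6% had H3K27ac and 58.2% Mi2B, and of the 97 without it 11.3% and 1.03%.

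The same division held in cells of the other genotypes. Sites with flox/- day 8 Oct4 had +/+ day 8 H3K27ac at 58.8% (55.7 to 61.8) and the others at 30.0% (28.1 to 32.0). On day 4 the +/+ H3K27ac shares were closer, at 58.9% and 48.7%. In -/- ES cells H3K27ac was at 30.1% of sites with flox/- day 8 Oct4 and 8.58% of the others, and in +/+ iPS cells at 33.6% and 8.62%. Mbd3 in +/+ iPS cells was at 10.4% of the first and 1.11% of the second, although neither had an iPS Oct4 peak. Kept sites with and without flox/- day 8 Oct4 differed likewise, at 73.2% and 40.2% for +/+ day 8 H3K27ac. For Mbd3 in +/+ iPS cells these kept sites had 51.5% and 16.5%.

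**Figure D5:**
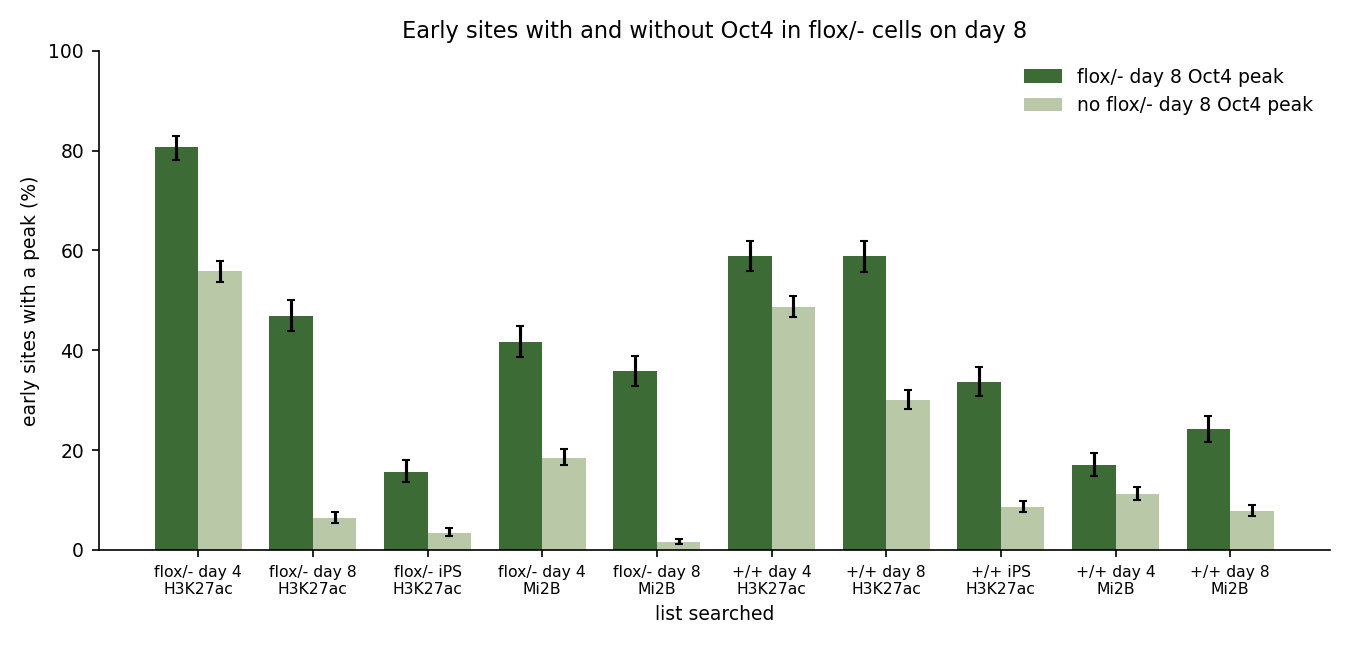
Share of the early sites with a peak (vertical axis, %) in each of 10 flox/- and +/+ lists (horizontal axis), for the 993 sites with a flox/- day 8 Oct4 peak (dark) and the 2157 sites without one (pale), with 95% Wilson intervals. On day 8 in flox/- cells the bars were 46.9% and 6.40% for H3K27ac and 35.8% and 1.62% for Mi2B.

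The early sites and the kept sites were closest on day 4 and lay apart afterwards. On day 4, H3K27ac was at 63.7% of early and 74.7% (72.0 to 77.2) of kept sites in flox/- cells and at 51.9% and 56.7% (53.8 to 59.6) in +/+ cells. On day 8 it was at 19.2% of early and 60.8% (57.8 to 63.6) of kept sites in flox/- cells and at 39.1% and 70.3% (67.5 to 72.9) in +/+ cells. Mi2B on day 8 was at 12.4% of early and 53.1% (50.2 to 56.1) of kept sites in flox/- cells and at 13.0% and 35.3% (32.5 to 38.2) in +/+ cells. Since kept sites were picked for iPS Oct4, their later marks share that choice. Among sites with flox/- day 8 Oct4, where both kinds had Oct4 at that time, flox/- day 8 H3K27ac was at 46.9% of early and 65.6% of kept sites. Their Oct4 scores differed too, with medians of 131 and 154 in the flox/- list, and the part of score was not tested.

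Sites that were already acetylated in fibroblasts had H3K27ac more often than the early sites at each later stage. The 2349 shared day 4 peaks with H3K27ac in both fibroblast lists and no iPS Oct4 had flox/- day 8 Oct4 at 37.4% (35.5 to 39.4), against 31.5% of the early sites given above. In flox/- cells 88.4% of them had H3K27ac on day 4, 51.9% (49.8 to 53.9) on day 8 and 44.4% (42.4 to 46.4) in iPS cells. The early sites had 63.7%, 19.2% and 7.33%. In +/+ cells the shares were 94.0%, 90.3% and 57.6%, where the early sites had 51.9%, 39.1% and 16.5%. On day 4, flox/- H3K4me3 was at 44.1% of the fibroblast-acetylated sites and 3.24% of the early sites. Both sets lacked iPS Oct4 by the way they were chosen, and they were chosen in opposite ways for fibroblast H3K27ac.

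The single sites below were ranked by +/+ Oct4 score. As +/+ H3K27ac on day 4 went with that score, the ranking favours sites acetylated in +/+ cells. Coordinates are 1-based and on build mm9, and no gene annotation of that build was used here. The site with the highest +/+ Oct4 score, chr13:21963035-21964266, ranked second of all +/+ day 4 Oct4 peaks. It had H3K27ac in both genotypes on both days and in -/- ES cells, with no H3K27ac in either iPS list. It had Mi2B on both days in flox/- cells and on day 8 in +/+ cells, and kept Oct4 on day 8 in flox/- cells. These Mi2B peaks lay near the lowest score of 50, at 60.6 and 53.6 in flox/- and 52.3 in +/+ cells. The next, chr8:12003578-12005210, had H3K27ac on both days in +/+ cells and none in flox/- cells, although its flox/- Oct4 peak stood at the 98.2nd percentile of that list. The third, chr12:26100229-26101817, lay 113.552 kb from fibroblast H3K27ac and likewise had H3K27ac on both days in +/+ cells alone. In flox/- cells this site had Mi2B on day 4 without H3K27ac.

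The fourth, chr19:46244142-46245199, lay 0.231 kb from fibroblast H3K27ac and had H3K27ac and Mi2B in both genotypes on day 4. On day 8 it had H3K27ac in +/+ cells, and Oct4 but no H3K27ac in flox/- cells. The fifth, chr4:137877639-137880032, was acetylated in all 4 lists of days 4 and 8 with a Mi2B peak beside it in each. The Mi2B scores on days 4 and 8 were 55.4 and 81.9 in flox/- and 164 and 51.5 in +/+ cells, with 50 the lowest in any list. It had H3K27ac in -/- ES cells and in neither iPS list. These 5 are the strongest of the 3150 and not typical of them, since the median site scored 110 and the lowest of these 5 scored 1521 in the +/+ list.

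Among the 372 sites with H3K27ac in all 4 lists, the highest-scoring after the sites on chromosomes 13 and 4 above were chr4:149711181-149712110, chr1:137095467-137096459 and chr3:83937050-83938226. That on chromosome 1 was the one of these with an iPS record: it had H3K27ac and Mi2B in all 4 lists of days 4 and 8, H3K27ac in both iPS lists and in -/- ES cells, and Mi2B and Mbd3 in +/+ iPS cells, all without an iPS Oct4 peak. Those on chromosomes 3 and 4 had flox/- day 8 Oct4 and no peak in any pluripotent list. Among the sites with Mi2B in both genotypes on the same day, chr9:104947387-104948587 had Mi2B and H3K27ac in both genotypes on day 4 and no peak in any later list. Its Mi2B scores were 51.1 in flox/- and 94.3 in +/+ cells. Another strong site with flox/- day 8 Oct4, chr11:88232653-88234013, had H3K27ac on day 4 in both genotypes, on day 8 in +/+ cells alone and in +/+ iPS cells.

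H3K4me3 was at 109 sites in any day 4 or day 8 list, and the 5 with the highest +/+ Oct4 score were chr13:72434626-72436608, chr19:5268454-5269892, chr14:94100230-94101229, chr8:75076412-75077456 and chr3:90165218-90166484. All 5 had H3K27ac in both genotypes on day 4 and in +/+ cells on day 8. In 4 of them the H3K4me3 peak was in flox/- cells on day 4, and in that on chromosome 8 it was in +/+ cells on day 4. The strongest was that on chromosome 19, with a flox/- H3K4me3 score of 1409, and the other 3 flox/- peaks scored 52.9 to 79.4. None of the 5 had H3K4me3 on day 8 or in any pluripotent list.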

How the data were processed

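ChIP-seq peak lists were used as deposited. MACS 1.4.1, Bowtie 0.12.5, CASAVA 1.8.2 and build mm9 are named, per the submitters' processing notes, and their settings are not given in the sources used here. Each peak's score is the authors' own, taken from its range to be a log-scaled p, with none below 50. Scores rank or filter peaks within a list alone. Read depth is unknown, so a missing peak means not detected. Groups follow the titles, and for 6 +/+ samples the stage label names another day. Each of the 52 groups had 1 sample (43 with a list, 9 inputs without), so no test was run.

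Overlap meant 1 bp. Shares have 95% Wilson intervals, beside the share of all 8740 shared day 4 Oct4 peaks, which include the sites. A count of 0 was taken to allow 3 counts. Overlap code gave the counts of bedtools 2.31.1 (2005 of 3150 for flox/- day 4 H3K27ac) and recovered the true overlaps on simulated data. Named sites are the 5 of highest +/+ Oct4 score among all sites, with H3K27ac in all 4 lists, with Mi2B in both genotypes on a day, with H3K4me3 on a day, and with flox/- day 8 Oct4. The sites, lists and settings were chosen with earlier results of these data known. A planned motif search was not run, and genes are not named, because no mm9 sequence or annotation was used here. Computation used pandas 2.3.3, numpy 2.4.6 and scipy 1.17.1 in Python 3.11.15, with matplotlib 3.10.9 for figures. Alternatives were a score minimum, 50% coverage, equal numbers of peaks, a 2 kb margin, fixed widths and flox/- coordinates.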

Additional observations from a re-analysis of the deposited data

Results flagged for a closer look

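At the 1086 kept sites the share with H3K27ac went in opposite directions between days 4 and 8 in the 2 genotypes, by -13.9 percentage points in flox/- cells and by 13.5 points in +/+ cells. At the 2349 fibroblast-acetylated sites without iPS Oct4, the same was so for Mi2B, with -15.9 points in flox/- and 11.3 points in +/+ cells. Over all 8740 shared day 4 Oct4 peaks Mi2B went the same opposite ways, at 37.6% on day 4 and 30.4% on day 8 in flox/- cells and 27.8% and 35.5% in +/+ cells. The difference between the genotypes was not tested in either case, as each group had 1 library. The H3K27ac lists held 39499 peaks on day 4 and 21237 on day 8 in flox/- cells, and 28173 and 39463 in +/+ cells. The Mi2B lists held 14384 and 13125 peaks in flox/- and 13930 and 23280 in +/+ cells, and the day of the +/+ Mi2B libraries is uncertain, since their stage labels name later days than their titles.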

How the results depend on the processing

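No paired analysis was possible because each group had 1 library and no test was run, and for the same reason no replicate could be left out. No difference in H3K27ac between genotypes or days changed sign. The cause of the changes below was not tested. With scores of at least 100 in every list there were 1547 sites. Fibroblast peaks and iPS Oct4 peaks scoring below 100 then left out no site. These sites may thus carry such weaker peaks and need not all be early sites. H3K27ac was then at 68.9% and 21.3% of sites on days 4 and 8 in flox/- and 56.7% and 45.4% in +/+ cells, Mi2B at 8.79% and 9.11% in flox/- and 6.46% and 5.30% in +/+ cells, flox/- day 4 H3K4me3 at 2.00% and flox/- day 8 Oct4 at 34.6%. With 50% of the Oct4 peak covered, H3K27ac was at 58.2% on day 4 in flox/- and 49.4% and 34.8% in +/+ cells, Mi2B at 24.0% on day 4 in flox/- and 1.67% and 6.76% in +/+ cells, and flox/- day 4 H3K4me3 at 1.88%. The Mi2B shares under that setting depend on peak width, as given above. With equal numbers of peaks, H3K27ac was at 43.0% on day 4 in flox/- and 40.0% and 22.0% in +/+ cells, Mi2B at 23.9% on day 4 in flox/- and 7.02% on day 8 in +/+ cells, H3K4me3 on day 4 at 0.444% in flox/- and 0% in +/+ cells, and flox/- day 8 Oct4 at 28.2%. With no fibroblast peak within 2 kb, H3K27ac was at 17.2% on day 8 in flox/- and 49.4% and 35.3% in +/+ cells, Mi2B at 23.7% on day 4 in flox/- and 11.3% and 11.2% in +/+ cells, and flox/- day 4 H3K4me3 at 2.62%. Counting only H3K27ac peaks that touched no fibroblast H3K27ac peak, a setting chosen after seeing the data, gave 58.8% and 15.0% in flox/- and 43.0% and 33.7% in +/+ cells. Taking flox/- coordinates or fixed widths moved no share beyond its interval. Read depth is unknown, so the depth at which a site would be called cannot be given.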
